A study of Homo sapiens with 5 samples.

Results

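The block described here is a run of 615 neighbouring rows of the deposited gene count table, rows 16456 to 17070, which covers the short arm of human chromosome 19. Of these rows, 482 carried an Ensembl gene identifier and at least 15 counts summed over the 5 libraries, and these 482 genes are the members, of 14496 genes in the whole table that met the same minimum. The other 133 rows had fewer than 15 counts, and 59 of them had 0 counts in every library. The rows were chosen by measured values: the fold changes of CAG over PGK in these same libraries lay lower over this run of rows than over the rest of the table. For that reason every fold change, call and count of the CAG against PGK comparison given for them is a description and no test of the block.

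The study measured nascent RNA with precision run-on sequencing (PRO-seq) in HEK293T, an established line derived from human embryonic kidney that expresses the SV40 large T antigen. All 5 libraries came from cells whose genome holds a landing pad, that is, an engineered locus for placing DNA of choice, and the design text describes the lines as monoclonal. The landing pad held the PGK promoter in 2 libraries and the CAG promoter in 3 libraries, and the libraries shared the cell line and growth medium. Whether replicates were grown separately, and how many clones each promoter stands for, is not stated in the labels. Promoter and clone therefore cannot be told apart, and p-values cover only the spread among these 5 libraries, which may be technical.

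In PRO-seq, engaged RNA polymerases extend their transcripts in isolated or permeabilized nuclei with biotin-labelled nucleotides, and the captured RNA reports transcription in progress. The signal of a gene depends both on how many copies of it the nucleus holds and on how often each copy is transcribed. Chromosome 19 is known as the most gene-dense human chromosome, and clusters of zinc finger genes lie on both of its arms. HEK293T cells are known for an abnormal karyotype that can differ between clones. DNA copy number was not measured here, so gene dosage and transcription per copy cannot be told apart in any value below.

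The label of the block was checked on the rows that could be placed. Known pairs of gene symbols and Ensembl identifiers, from general knowledge, were used to place the rows. Of 275 such pairs present in both the table and the RefSeq annotation, 274 followed the RefSeq gene order. Of the 245 pairs in that order that fell in the block, 244 belonged to chromosome 19 and 1 to chromosome 18, and they covered 214 of the 482 members. The other members were not placed one by one. All 13 genes taken as short-arm anchors lay inside it, among them STK11, EEF2, SMARCA4, DNMT1, CALR, JUNB and UPF1. All 10 long-arm anchors, from UQCRFS1 to TRIM28, lay after it. The first row, 16456, matched PARD6G of chromosome 18, and the row just after the block, 17071, matched UQCRFS1, the first long-arm anchor. These pairs served to place the rows only. Neither the table nor the reference pairs identifiers with symbols, so members are given below by row, by position in the block and, for the leading genes, by identifier. For the same reason no sequence was tied to a member, and the cell line was not checked against marker genes.

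The block took a smaller share of nascent counts in the CAG line than in the PGK line. It held 2.97% of the counts of PGK replicate 1 (95% exact binomial interval 2.95% to 2.98%) and 2.66% of those of PGK replicate 2 (2.64% to 2.67%). It held 2.12% of CAG replicate 1 (2.11% to 2.13%), 2.22% of CAG replicate 2 (2.21% to 2.23%) and 2.03% of CAG replicate 3 (2.01% to 2.04%). Both PGK libraries therefore lay above all 3 CAG libraries, with means of 2.81% ± 0.220 (SD, n = 2) and 2.12% ± 0.0981 (SD, n = 3). The intervals cover counting error only. The spread between replicates of a line was wider than the intervals. The shallowest library, PGK replicate 2, had 3712105 counts in total, and the deepest, CAG replicate 3, had 5864157.

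Of the 482 members, 434 had enough counts to be tested. The 48 members left untested had a median of 26 counts and at most 45 counts over all libraries, and they were evenly divided, with 24 lower and 24 higher in mean CPM in the CAG line. CPM is the count of a gene scaled to the size of the library. The median log2 fold change of the tested members, CAG over PGK, was -0.42, a fold of 0.748, against -0.0046 for all 13400 tested genes. The middle of the block was narrow. Its interquartile range was 0.35 on the log2 scale, from -0.57 to -0.22, against 0.51 for all tested genes. Of the tested members, 281, or 64.7%, lay within 0.25 of the block median. Of all tested genes 24.3% did, but that value is not their own median, so this share does not compare the widths.

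Lower calls made up most of the block. By edgeR's quasi-likelihood test with a Benjamini-Hochberg adjusted p under 0.05, 275 members were called lower in CAG, 12 were called higher and 147 were not called. Over all tested genes 43.4% were called, 20.7% as lower and 22.7% as higher. In 305 members all 3 CAG libraries lay below both PGK libraries, an order seen in 30.4% of all tested genes. In 25 members all CAG libraries lay above both PGK libraries, against 30.9% of all tested genes, and in the other 104 members the libraries of the lines overlapped. The fold change was below 0 in 385 members, or 88.7%, and the longest run of neighbouring tested members below 0 was 35 genes.

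The lower level extended through the whole block in row order. When the tested members were taken in row order in 18 groups of 24 or 25 genes, the group medians of the log2 fold change lay between -0.67 and -0.29. In all 18 groups the median level of each CAG library lay below that of both PGK libraries. Before the last group the lowest median was -0.52, in the group of rows 16893 to 16938, and the highest was -0.29, in the group of rows 16940 to 16968, which follows directly. The group of rows 16653 to 16696 had the widest interquartile range, 0.54, and 17 of its 24 members were below 0.

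**Figure D1:**
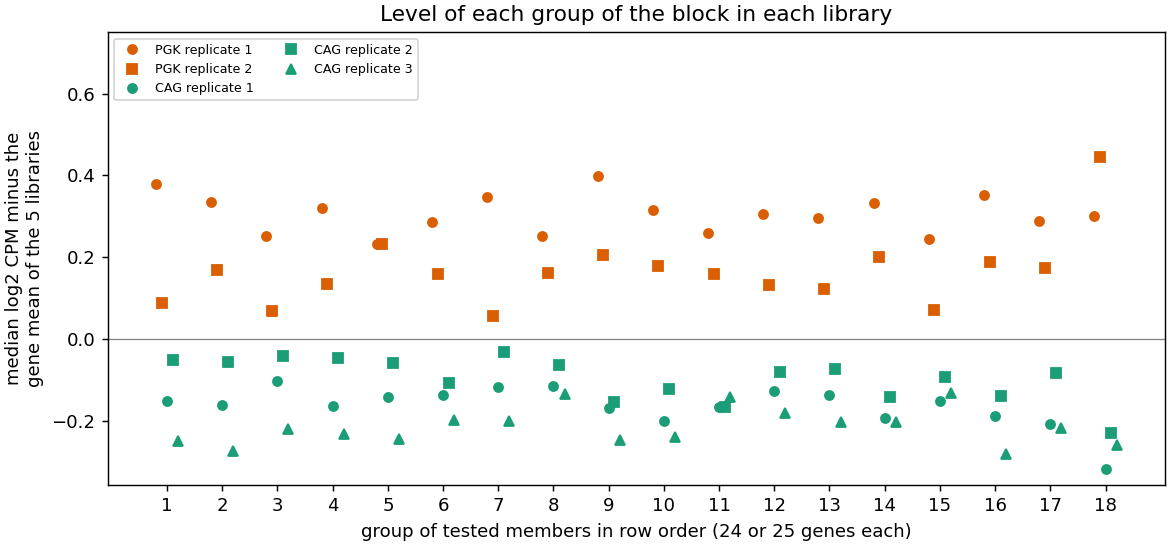
The plot shows the level of each group of tested members in row order in each library: the horizontal axis is the group, 1 to 18, and the vertical axis is the median over its members of log2 CPM minus each gene's mean over the 5 libraries. Orange symbols are the 2 PGK libraries and green symbols the 3 CAG libraries; the green symbols lie below the orange ones in all 18 groups, and the lines lie farthest apart in group 18.

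The last group, rows 17030 to 17070, stood lower than the others. Its median log2 fold change was -0.67, and 22 of its 25 members were called lower and 1 was called higher. Without this group the median of the other 409 tested members was -0.41, with 253 called lower and 11 called higher. Of all tested genes, 20.7% were called lower and 22.7% higher. The group was set apart after its values were seen. The group also differed in how the PGK libraries stood to each other. Relative to each gene's mean over the 5 libraries, its median log2 level was 0.30 in PGK replicate 1 and 0.44 in PGK replicate 2, whereas the other members had 0.30 in PGK replicate 1 and 0.15 in PGK replicate 2. In the CAG libraries the last group lay at -0.32, -0.23 and -0.26, and the other members at -0.15, -0.09 and -0.21. Of the 16 tested members that were at least 2-fold lower in CAG, 6 lay in this last group, and so did 1 of the 8 that were at least 2-fold higher. Over all 13400 tested genes, 262 were at least 2-fold lower and 700 at least 2-fold higher.

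The PGK libraries differed from each other over the block. The choice of rows did not use this difference as such, but it used the values of both PGK libraries. The difference is therefore not independent of the choice and is given as a description. The median log2 level over all tested members was 0.30 in PGK replicate 1 and 0.16 in PGK replicate 2, and it was -0.16, -0.09 and -0.21 in the CAG replicates. The median difference of PGK replicate 2 minus PGK replicate 1 was -0.16 in the block and 0.01 in all other tested genes. The order was not particular to the block. Rows 17071 to 17890, which follow it, had median log2 levels of -0.27 in PGK replicate 1 and -0.43 in PGK replicate 2. PGK replicate 1 was the higher of the pair in 336 of 434 members, or 77.4%, and in 47.5% of the other tested genes. In 16 of the 18 groups in row order PGK replicate 1 had the higher median. Between CAG libraries the median differences in the block were 0.07, -0.06 and -0.13 for replicate 2 minus 1, 3 minus 1 and 3 minus 2. The smallest median difference between a PGK and a CAG library, CAG replicate 2 minus PGK replicate 2, was -0.26, which is larger in size than any difference within a line.

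**Figure D2:**
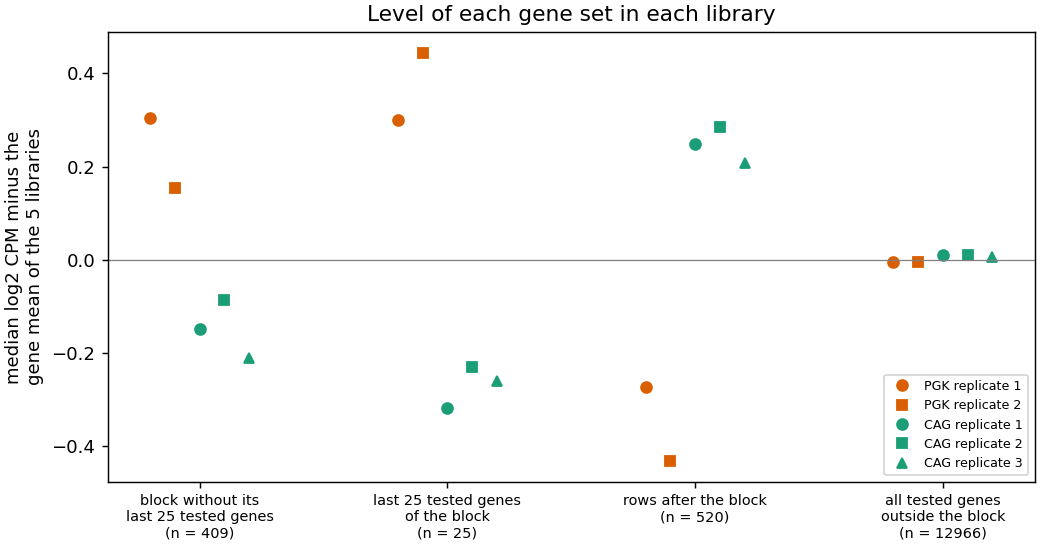
The plot shows the median level of 4 sets of tested genes in each library, as log2 CPM minus the gene mean over the 5 libraries, with PGK libraries in orange and CAG libraries in green. Both PGK libraries lie above the CAG libraries in the block without its last 25 tested genes and in those last 25 genes. They lie below the CAG libraries in the rows after the block, and at about 0 together with them in the genes outside the block.

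At the end of the block the direction turned between neighbouring rows. The last row of the block was set by a choice made on these fold changes. A second block of chromosome 19 was likewise singled out as higher in CAG from these data. The turn and the values on both sides of it are therefore a description and no test of a boundary. The last row, 17070, had 254 and 265 CPM in the PGK libraries and a mean of 180.3 CPM ± 10.7 (SD, n = 3) in the CAG libraries. The next row, 17071, had 24.6 and 26.6 CPM in the PGK libraries and a mean of 39.1 CPM ± 1.54 (SD, n = 3) in the CAG libraries. Their log2 fold changes were -0.52 and 0.62. The libraries of the lines did not overlap in either row, and the order of the lines was opposite. Of the 5 tested genes just inside this end, 4 were called lower and 0 higher, with log2 fold changes from -4.09 to -0.18. Of the 5 just outside it, 0 were called lower and 4 higher, from 0.43 to 0.62. In the rows from 17071 to 17890, the last long-arm anchor, 520 genes were tested, with a median log2 fold change of 0.60, 390 called higher and 5 called lower. Over all tested genes 20.7% were called lower and 22.7% higher.

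The start of the block was less sharp. Of the 5 tested genes just inside it, 2 were called lower and 0 higher, with a median log2 fold change of -0.32 and a range from -1.23 to 0.09. Of the 5 just outside it, also 2 were called lower and 0 higher, with a median of -0.04 and a range from -0.36 to 0.18. Over all tested genes 43.4% were called, 20.7% as lower and 22.7% as higher. With 5 genes on each side, these counts do not locate an edge. The row before the block, 16455, had 55.1 and 55.2 CPM in the PGK libraries and a mean of 62.7 CPM ± 0.526 (SD, n = 3) in the CAG libraries. The first row of the block, 16456, which matched the chromosome 18 gene, had 29.4 and 25.2 CPM in the PGK libraries and a mean of 22.1 CPM ± 1.05 (SD, n = 3) in the CAG libraries, and it was not called.

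**Figure D3:**
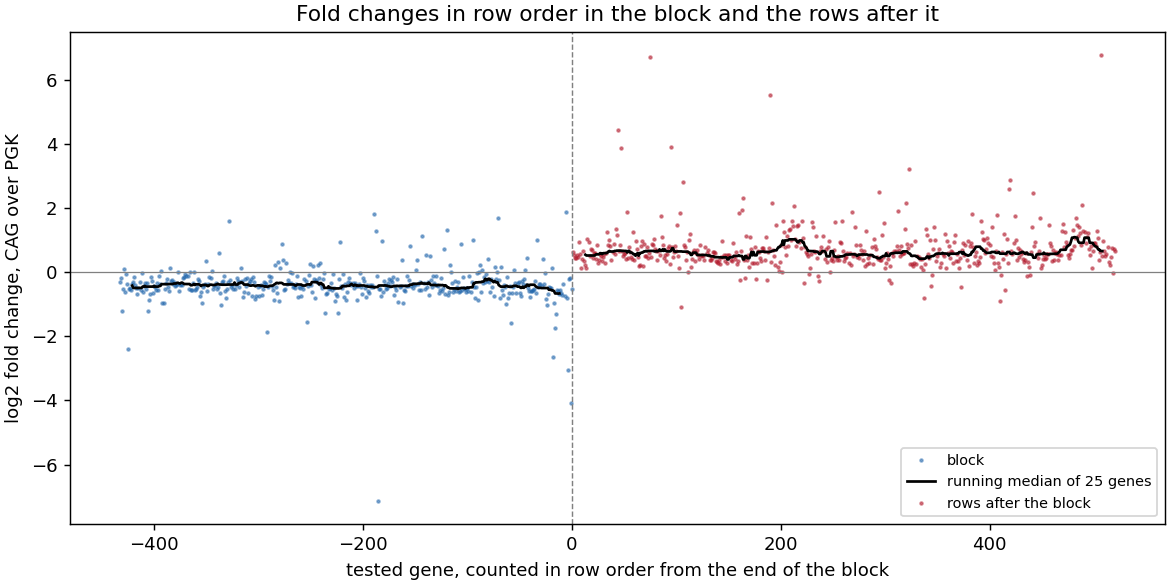
Each point is a tested gene; the horizontal axis counts tested genes in row order from the end of the block and the vertical axis is the log2 fold change, CAG over PGK. Blue points are the 434 tested members and red points the 520 tested genes of the rows after the block. Black lines are running medians of 25 genes, taken within each set and missing at its ends. They lie below 0 in the block and above 0 after it, and they stop short of the dashed line at the end of the block.

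The spread of the members' fold changes narrowed with the number of counts behind them. The tested members were divided by mean CPM into 4 classes of 108 or 109. In the lowest class, 1.71 to 12.5 CPM, the median log2 fold change was -0.25, the interquartile range was 0.77 and 28 of 109 were called lower. The middle classes had medians of -0.44 and -0.41 and interquartile ranges of 0.37 and 0.22, with 60 of 108 and 88 of 108 called lower. In the highest class, 76.1 to 371.1 CPM, the median was -0.46, the interquartile range was 0.21 and 99 of 109 were called lower. Shares called lower among all tested genes of the same classes are not given here. The median standard error of the log2 fold change fell from 0.27 in the lowest class to 0.08 in the highest. CPM are not divided by gene length, so these classes order genes by counts and not by transcription.

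Among the 72 members with a mean of at least 100 CPM, 67 were called lower, and in 68 the CAG libraries lay below both PGK libraries. Over all tested genes of any level, 20.7% were called lower and 30.4% had this order. Shares for all tested genes at such high levels are not given here. Their log2 fold changes ran from -1.02 to 0.06. All 8 members with the highest mean CPM were called lower, with log2 fold changes from -1.02 to -0.20. The member with the highest mean CPM of all, in row 16584, had 416.5 CPM in PGK replicate 1 and 651.9 CPM in PGK replicate 2, and a mean of 262.4 CPM ± 20.1 (SD, n = 3) in CAG. PGK replicate 2 stood far above the other libraries in this member, although the block as a whole was lower in that library than in PGK replicate 1.

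**Figure D4:**
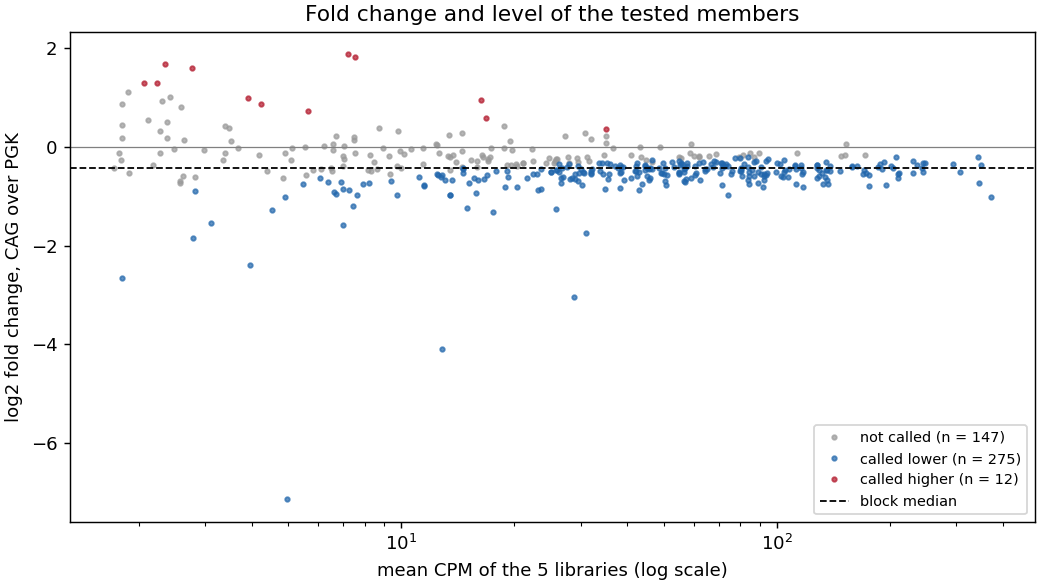
Each point is 1 of the 434 tested members; the horizontal axis is the mean CPM over the 5 libraries on a log scale and the vertical axis is the log2 fold change, CAG over PGK. Blue points were called lower, red points higher and grey points not called; the points gather about the dashed block median, -0.42, as the mean CPM grows, and the lowest point rests on 115 counts in the PGK libraries and 1 count in the CAG libraries.

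Some members departed from the common shift. Tested against the block median in place of 0, 64 members lay further down and 69 lay above it, which leaves 301 members not called apart from the median. With the same shift 74.1% of all tested genes were called, 4.54% below the block median and 69.6% above it. The last group in row order held 13 of the 64 that lay further down and 2 of the 69 above.

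The naming rule took members that were called, had a mean of at least 5 CPM and had no overlap between the lines. It was met by 258 members that were lower and 6 that were higher in CAG. The share of all tested genes that met the rule is not given here, so these counts only describe the choice. A member in row 16817, singled out after its values were seen, fell outside the rule because its mean was 4.96 CPM. It had 115 counts in the PGK libraries and 1 count in the CAG libraries, a ratio of PGK over CAG of 198.0 (95% exact interval 34.8 to 7887, counting error only). Under the rule, the largest fall was in ENSG00000213967, row 17069, the row listed just before the last. It had 29.6 and 29.4 CPM in the PGK libraries and 2.85, 1.38 and 1.02 CPM in the CAG libraries. The PGK libraries were nearly equal and the lines did not overlap. The log2 fold change was -4.09, or 3.68 below the block median, and it rests on 14, 7 and 6 counts in the CAG libraries.

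The next largest fall under the rule was in ENSG00000167232, row 17065, in the same group. It had 55.3 and 67.0 CPM in the PGK libraries and 6.51, 8.90 and 6.64 CPM in the CAG libraries, again with no overlap between the lines. The log2 fold change was -3.04 with a standard error of 0.15. Both leading falls under the rule lay in the last group, whereas row 16817, with the larger ratio, lay in the middle of the block. Row 17067, which lies between the leading falls, had a log2 fold change of -0.18 and was not called.

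The largest rise under the rule was in ENSG00000229676, row 17060, which also lies in the last group. It had 1.95 and 3.93 CPM in the PGK libraries and 8.95, 10.7 and 10.5 CPM in the CAG libraries. The libraries of the lines did not overlap, and the log2 fold change was 1.88 with a standard error of 0.29. The other leading rise, ENSG00000197647 in row 16811, had 2.48 and 3.64 CPM in the PGK libraries and 11.2, 9.49 and 10.7 CPM in the CAG libraries. The log2 fold change was 1.82 with a standard error of 0.27. Both rises started from low levels, with 11 to 14 counts in each PGK library. The smallest of the 6 rises under the rule was 0.36 on the log2 scale, and of all 12 members called higher, 6 had a mean under 5 CPM.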

How the data were processed

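PRO-seq was read from 1 deposited table of raw counts per Ensembl gene and library, whole numbers that the authors did not scale. The build was hg19 and the tools were featureCounts 2.0.3, HISAT2 2.2.1, Bowtie2 2.5.1, UMI-tools, cutadapt and fastp 0.23.2, per the submitters' processing notes. Not given in the sources used here were the strand setting, the annotation and the counted part of each gene, so counts of overlapping, antisense or near-identical genes are uncertain. All 5 columns matched a sample. The 18 rows without an identifier, at 13 to 25 counts per library, were left out.

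The whole table was fitted in edgeR 4.0.16 (R 4.3.3) with TMM factors, filterByExpr at its defaults (minimum count 10, minimum total 15) and the quasi-likelihood F test for the line (CAG over PGK) without covariates, and p-values were adjusted over 13400 genes. Departures from the block median used that median as an offset of the CAG libraries. CPM are relative to the TMM-scaled library size; log2 CPM used a prior count of 2. The fits were tested on simulated data. Alternatives were other scaling factors, other filters, DESeq2 1.42.0, limma-trend (limma 3.58.1), the replicate number as a block and leaving out each library.

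The members and all lists were chosen with earlier results of these data known. The naming rule took called members with a mean of at least 5 CPM and no overlap between the lines, ordered by fold change. Because identifiers were not paired with names, 2 identifiers per direction are printed. The lists of short-arm and long-arm anchors served to place the rows. The other gene lists and the marker lists were not applied. Symbol and identifier pairs from general knowledge (279 tried, in part with edge rows already seen) placed the rows against RefSeq order (GRCh38.p14) and named no result. RefSeq start coordinates were used only to order these pairs.

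Libraries with the same replicate number did not deviate together: the correlations of their deviations from the line means were 0.04 and -0.07 for replicates 1 and 2.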

Additional observations from a re-analysis of the deposited data

Results flagged for a closer look

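The 18 rows without an identifier, which no comparison used, held 95 counts over the 5 libraries, between 13 and 25 per library.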

How the results depend on the processing

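The block median log2 fold change was -0.42, and it stayed below 0 under every alternative run, between -0.33 without PGK replicate 1 and -0.47 without PGK replicate 2. Members called lower numbered 275, and 205 to 301 when 1 library was left out. The 12 members called higher became 3 under the DESeq2 Wald test and 6 to 12 when 1 library was left out, with the lowest count without PGK replicate 2. The difference in block share, CAG minus PGK, was -0.69 percentage points, and -0.85 to -0.53 when 1 library was left out. With the replicate number as a block, 234 members were called lower and 9 higher, the median was -0.37 and 4667 of all tested genes were called, against 5818 without it. Whether the numbers pair the libraries is not stated in the labels, and the low correlations of their deviations cannot settle it with 2 PGK libraries. The 4 leading members kept their direction and call under all alternatives. The rows were chosen on these fold changes, so a direction kept under the alternatives is no sign of stability. Members with few counts had the widest errors, and 48 members were not tested.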
